A study of Homo sapiens with 12 samples.

Results

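MDM2, PPM1D and CCNG1 are 3 p53 target genes whose products act back on p53, and their mRNA ratios were compared across 5 drugs. All probes that the platform annotation assigns to these symbols were taken, which gave 5 probes of 8170 and 3 genes of 5499. MDM2 is represented by probe 5505662, CCNG1 by probe 1684890 and PPM1D by probes 2244109, 2748141 and 3068755. The probes follow from the gene symbols, with no selection by value, but the 3 genes themselves were chosen with earlier results of these data known. The study measured total RNA of H460 cells, an established human lung cancer line, on 12 two-channel arrays, each holding treated RNA beside untreated RNA. Cells were treated for 24 h with cisplatin at 5 µM, 5-fluorouracil (5-FU) at 1 µM, cytarabine (spelled cytarabin in the labels) at 0.2 µM, paclitaxel at 5 nM or cytochalasin D at 0.2 µM, and the reference channel held RNA of untreated H460 cells. Each drug had 2 replicates. The 5-FU replicates were each hybridised in both channel orientations (4 arrays), and the other drugs only with treated RNA in channel 1. Each drug was used at a single dose, so any difference between drugs holds for these doses.

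In cells, p53 is a transcription factor that is stabilised after DNA damage and turns on genes for growth arrest, repair and cell death. It also turns on its own restraints. MDM2 is the ubiquitin ligase that marks p53 for degradation. PPM1D (also WIP1) is a phosphatase that removes activating phosphates from p53 and from the kinases of the damage response. CCNG1 encodes cyclin G1, which brings the phosphatase PP2A to MDM2. Cisplatin crosslinks DNA, 5-FU and cytarabine interfere with nucleotide supply and DNA synthesis, paclitaxel stabilises microtubules and cytochalasin D blocks actin polymerisation.

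The promoters of the 3 genes are shown because the genes are compared as targets of the same transcription factor. The windows are the 250 bases before a RefSeq start site (GRCh38.p14, plus strand). RefSeq lists several start sites for MDM2, and the internal one, 845 bases downstream of the most upstream one, is the promoter textbooks describe as p53-responsive. Capitals mark matches of the p53 full site (a 20-base site without spacer, up to 3 mismatches) and of TGACGTCA, the palindromic cAMP response element. Both motifs are their own reverse complement, so each search covered both strands, and the matches did not overlap.
MDM2 upstream promoter, chr12:68807922-68808171: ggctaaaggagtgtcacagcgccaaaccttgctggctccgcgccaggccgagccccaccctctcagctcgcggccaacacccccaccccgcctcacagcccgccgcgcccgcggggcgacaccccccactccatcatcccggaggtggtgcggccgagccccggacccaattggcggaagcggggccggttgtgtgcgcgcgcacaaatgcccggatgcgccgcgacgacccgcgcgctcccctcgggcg
MDM2 internal promoter, chr12:68808767-68809016: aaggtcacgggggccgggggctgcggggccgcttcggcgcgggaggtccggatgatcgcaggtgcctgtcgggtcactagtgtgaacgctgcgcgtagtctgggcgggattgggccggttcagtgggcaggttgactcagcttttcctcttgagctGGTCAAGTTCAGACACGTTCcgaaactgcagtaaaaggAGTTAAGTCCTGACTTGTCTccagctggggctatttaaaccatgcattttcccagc
PPM1D promoter, chr17:60599943-60600192: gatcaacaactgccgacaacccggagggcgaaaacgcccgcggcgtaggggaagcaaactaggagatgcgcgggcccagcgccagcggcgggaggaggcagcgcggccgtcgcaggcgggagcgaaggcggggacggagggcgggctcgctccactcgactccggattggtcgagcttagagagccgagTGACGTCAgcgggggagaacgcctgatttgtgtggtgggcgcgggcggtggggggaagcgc
CCNG1 promoter, chr5:163437321-163437570: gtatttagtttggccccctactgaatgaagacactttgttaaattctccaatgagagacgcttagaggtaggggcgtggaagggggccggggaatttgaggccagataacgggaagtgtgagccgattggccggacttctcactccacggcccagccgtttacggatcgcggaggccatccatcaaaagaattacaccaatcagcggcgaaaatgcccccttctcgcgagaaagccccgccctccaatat
The internal MDM2 window held 2 matches of the p53 full site, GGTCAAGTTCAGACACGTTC with 2 mismatches, starting 94 bases before the start site, and AGTTAAGTCCTGACTTGTCT with 3 mismatches, starting 56 bases before it. The upstream MDM2 window, the PPM1D window and the CCNG1 window held no such match. Of 35114 promoter windows of the same length, 0.561% held a p53 full site with up to 2 mismatches and 4.36% one with up to 3. The PPM1D window held TGACGTCA, starting 61 bases before the start site, as did 1.65% of all windows. A match is a description of these letters, and sites outside the windows were not searched.

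The deposited values are log ratios of the 2 channels, whose base and numerator no source used here gives. They were taken as log2, and fold changes rest on that. The sign was set so that a list of other p53 targets, from which the 3 genes were left out, had a positive median on both cisplatin arrays. That median was 0.83 (17 of 17 genes above 0) and 0.64 (16 of 17) on the 2 arrays. The same sign gave medians of 0.39, 0.47, 0.27 and 0.25 on the 4 5-FU arrays, in both orientations. The direction of every ratio below is therefore likely, on this basis, and the direction of the p53 list in cisplatin is fixed by it. Values were missing for 21.5 to 46.7% of probes on the 5-FU arrays and 6.44 to 14.5% on the others. Arrays correlated at r = 0.63 to 0.82 within a drug and orientation, and at 0.49 to 0.53 between the orientations of 5-FU. Between different drugs in the same orientation, r was 0.10 to 0.15 for pairs with 5-FU. It was 0.35 to 0.73 for pairs among the other drugs. Pairs of 5-FU with another drug in opposite orientations gave 0.04 to 0.19. Ratios carry no expression levels, so the cell line could not be set against marker genes. The labels do not say whether replicates are separate cultures, so p-values measure the spread between these samples, which may be technical. A ratio tested against 0 also leaves out the spread of the untreated cultures. In bulk RNA, fewer cells that express a gene and less of its RNA per cell cannot be told apart.

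MDM2 rose with cisplatin and with 5-FU and did not pass the test with the other drugs. On the cisplatin arrays its treated-over-untreated log2 ratio was 2.74 and 2.57. On the 5-FU arrays it was 1.80 and 1.63 with treated RNA in channel 2 and 1.15 and 1.35 with treated RNA in channel 1. Both drugs lay above all arrays of the other drugs, and the lowest cisplatin value lay above the highest 5-FU value. The ratio was -0.39 and -0.04 with cytarabine, -0.22 and -0.12 with paclitaxel, and -0.22 and -0.05 with cytochalasin D. These 6 arrays overlapped one another and were all below 0. Among the probes of a single array, MDM2 ranked 3 and 4 from the top on the cisplatin arrays, of 7644 and 7557 with a value. On the 5-FU arrays it ranked between 9 and 29.

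**Figure D1:**
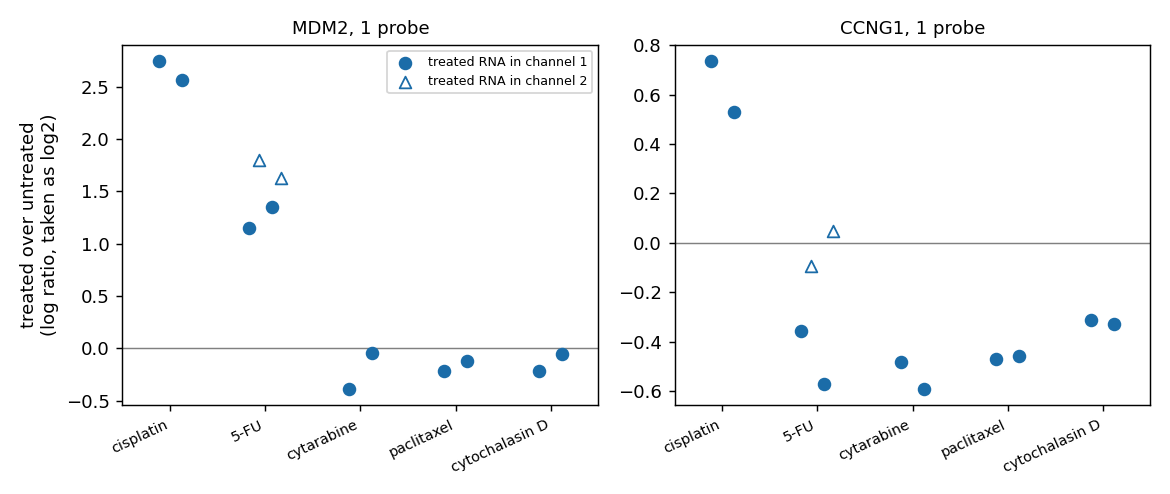
Log ratio (taken as log2) of treated over untreated RNA for the MDM2 probe (left) and the CCNG1 probe (right) on each of 12 arrays, by drug. Filled circles are arrays with treated RNA in channel 1 and open triangles arrays with treated RNA in channel 2. MDM2 is high with cisplatin (2.57 and 2.74) and 5-FU (1.15 to 1.80), while CCNG1 is above 0.5 only with cisplatin.

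The fit joined all 12 arrays and took the channel effect from the 5-FU array pairs, since the other drugs had a single orientation. In this limma fit, MDM2 rose with cisplatin by 2.89 ± 0.11 (SE, n = 2), a 7.41-fold change with an adjusted p of 2.56e-05. This was the highest of the 4883 ratios tested for cisplatin. With 5-FU it rose by 1.48 ± 0.09 (SE, n = 2), a 2.79-fold change with a limma adjusted p of 3.82e-05, the fifth highest of 3829. With cytarabine, paclitaxel and cytochalasin D the fitted ratios were 0.02 (95% interval -0.24 to 0.28), 0.06 (-0.20 to 0.32) and 0.10 (-0.16 to 0.36). The 5-FU array pairs gave MDM2 a channel effect of -0.33 and -0.14, which the fit subtracts from the 4 drugs hybridised in 1 orientation. That the effect is the same on their arrays is assumed and was not tested. The fitted cisplatin ratio thus lies above both cisplatin arrays, and without the channel term it was 2.655.

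PPM1D rose with cisplatin, by its average over probes, and passed the test with no other drug. The mean of its probes was 1.71 and 1.62 on the cisplatin arrays. On the 5-FU arrays it was 0.36 and 0.26 with treated RNA in channel 2 and 0.11 and 0.22 with treated RNA in channel 1. It was -0.46 and -0.15 with cytarabine, 0.02 and -0.12 with paclitaxel, and 0.07 and -0.41 with cytochalasin D. The cisplatin arrays stood well above every other array, and in this mean the 4 5-FU arrays lay above the 6 arrays of the remaining drugs. The mean rests on 2 probes on 4 of the 12 arrays and on 3 on the rest, and for each probe alone the 5-FU arrays overlapped those of the remaining drugs. In the limma fit PPM1D rose with cisplatin by 1.74 ± 0.14 (SE, n = 2), a 3.34-fold change with an adjusted p of 0.000539. Its ratio with 5-FU was 0.24 ± 0.12 (SE, n = 2; 95% interval -0.04 to 0.51), which did not pass at a limma adjusted p of 0.270. The ratios with cytarabine (-0.23), paclitaxel (0.02) and cytochalasin D (-0.10) did not pass either, with limma adjusted p values from 0.282 to 0.935.

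The 3 PPM1D probes disagreed, and the average hides this. Probe 2748141 read 2.72 and 2.36 on the cisplatin arrays and probe 3068755 read 2.33 and 2.42. Probe 2244109 read 0.09 and 0.07 there. The first 2 probes ranked between 4 and 8 from the top of their cisplatin arrays, and probe 2244109 ranked 2610 and 2682. The annotation ties the 2 responding probes to the same sequence record and probe 2244109 to another. The reason for the difference was not tested.

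Fitted as features of their own with limma, probe 3068755 rose with cisplatin by 2.22 ± 0.13 (SE, n = 2; adjusted p = 0.000297) and probe 2748141 by 2.51 ± 0.42 (SE, n = 2; adjusted p = 0.0241). Probe 2244109 had a ratio of 0.18 ± 0.06 (SE, n = 2; adjusted p = 0.0862) in the same limma fit, where 15.9% of single probes passed with cisplatin. Over all 10 arrays of the other drugs, probe 2244109 stayed between -0.04 and 0.30, so it varied little with any drug. The mean of the 2 responding probes, which share a record and were chosen after seeing the values, gave 2.55 ± 0.21 for cisplatin (SE, n = 2; limma adjusted p = 0.000478), against 1.74 with all 3 probes. The 3-probe value is thus pulled toward 0 by a probe that did not pass the test.

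With 5-FU the PPM1D probes did not settle the response. Probe 2748141 read 0.43 in channel 2 and 0.49 in channel 1 for replicate 1, and -0.14 in channel 1 for replicate 2. Probe 3068755 read -0.12 in channel 1 for replicate 1, and 0.43 in channel 2 and 0.75 in channel 1 for replicate 2. Each of the 2 probes was thus above 0.4 in a different replicate and lacked a value on 1 5-FU array. Their mean gave 0.34 ± 0.17 (SE, n = 2), which did not pass at a limma adjusted p of 0.268. With cytarabine, probe 3068755 read -0.45 and -0.31 and fell by 0.54 ± 0.13 in the limma fit (SE, n = 2; adjusted p = 0.0294), where 22.3% of single probes passed, while the probe average did not pass. Probe 2748141 read -1.01 in cytarabine replicate 1 and had no value in replicate 2. With cytochalasin D it read 0.21 and -0.97, so its replicates differed in sign.

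**Figure D2:**
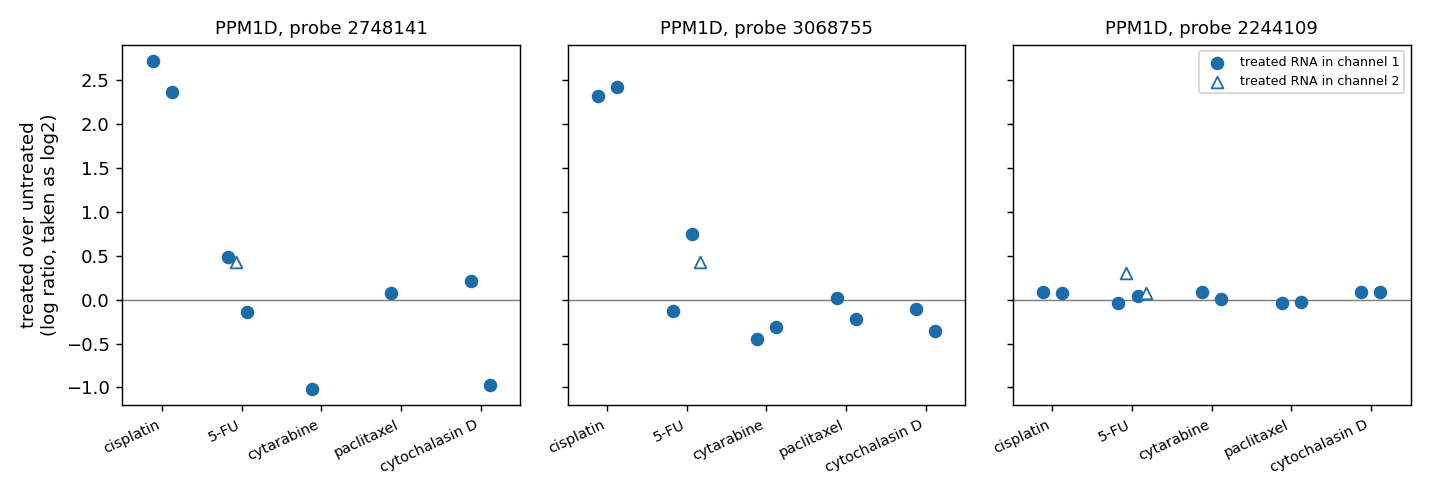
Log ratio (taken as log2) of treated over untreated RNA for each of the 3 PPM1D probes on each array with a value, by drug, on a shared axis. Filled circles are arrays with treated RNA in channel 1 and open triangles arrays with treated RNA in channel 2. Probes 2748141 and 3068755 read 2.33 to 2.72 with cisplatin, and probe 2244109 stays between -0.04 and 0.30 on all 12 arrays.

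CCNG1 rose with cisplatin and fell by a small amount with 5-FU and cytarabine. Its ratio was 0.74 and 0.53 on the cisplatin arrays. On the 5-FU arrays it was -0.09 and 0.05 with treated RNA in channel 2 and -0.36 and -0.57 with treated RNA in channel 1. The 2 orientations of 5-FU did not overlap. With cytarabine the ratio was -0.48 and -0.59, with paclitaxel -0.47 and -0.46, and with cytochalasin D -0.31 and -0.33. All 8 arrays of the other drugs with treated RNA in channel 1 lay between -0.59 and -0.31, and only the cisplatin arrays were clearly above 0.

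In the limma fit CCNG1 rose with cisplatin by 0.85 ± 0.08 (SE, n = 2), a 1.81-fold change with an adjusted p of 0.000736. It fell by 0.24 ± 0.06 with 5-FU (SE, n = 2; limma adjusted p = 0.0370) and by 0.32 ± 0.08 with cytarabine (SE, n = 2; limma adjusted p = 0.0264). The ratios with paclitaxel (-0.24, limma adjusted p = 0.101) and cytochalasin D (-0.10, limma adjusted p = 0.429) did not pass. The size of the small ratios moved with the channel effect, which was -0.13 and -0.31 in the 2 5-FU array pairs. Without the channel term, paclitaxel (-0.47, limma adjusted p = 0.00444) and cytochalasin D (-0.32, limma adjusted p = 0.0190) passed as well, where 9.58% and 11% of all features passed. The falls with 5-FU and cytarabine each lost the call when either replicate of that drug was left out, when 5-FU became -0.26 or -0.23 and cytarabine -0.37 or -0.26. The cytarabine fall also lost it without 5-FU replicate 1 (-0.23), and the 5-FU fall without any single replicate of paclitaxel or cytochalasin D, at an unchanged -0.24. The rise with cisplatin passed in each of these fits.

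Counted by drug, 3 of the 3 genes were higher with cisplatin at an adjusted p under 0.05, where 16.3% of all tested features passed in either direction and 8.54% were higher. With 5-FU, MDM2 was higher and CCNG1 lower, where 15.6% of features passed in either direction. With cytarabine, CCNG1 was lower, where 22% of features passed. None of the 3 genes passed with paclitaxel or cytochalasin D, where 6.69% and 10.7% of features did. Their limma p values before adjustment there included 0.0141 for CCNG1 with paclitaxel and were otherwise at least 0.232.

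**Figure D3:**
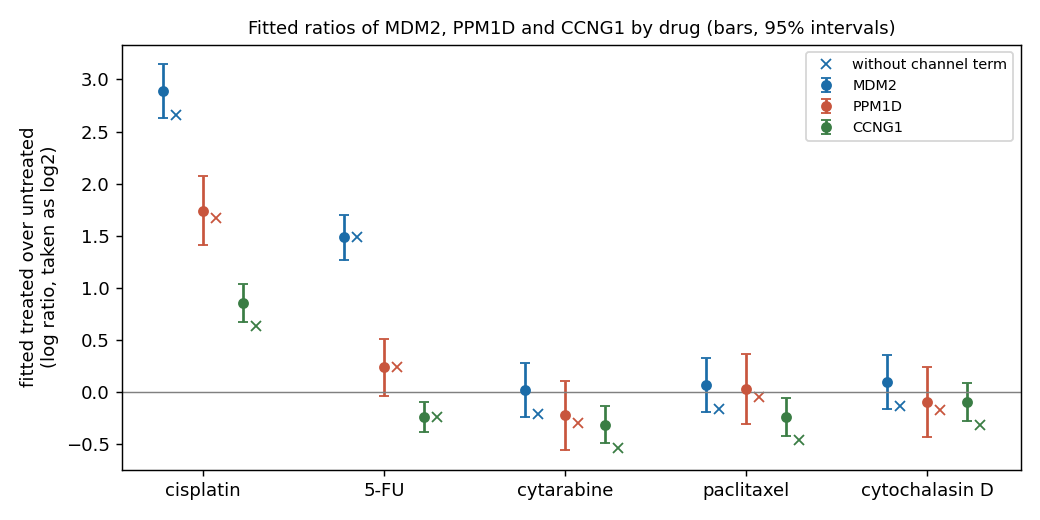
Fitted log ratio (taken as log2) of treated over untreated RNA for MDM2, PPM1D (mean of 3 probes) and CCNG1 in each of 5 drugs. Circles with bars are the fit with the channel term and its 95% intervals, and crosses the fit without it. All 3 genes lie above 0 with cisplatin (2.89, 1.74 and 0.85), and with 5-FU only the interval of MDM2 lies above 0.

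The 5 drugs form 10 pairs, and each difference was tested in the same fit, adjusted over all features of the pair. Cisplatin stood above each of the other drugs for all 3 genes. Against 5-FU, where 14% of features differed, MDM2 was higher with cisplatin by 1.41 ± 0.14 (SE), PPM1D by 1.50 ± 0.19 and CCNG1 by 1.10 ± 0.10, with limma adjusted p values of 0.000828, 0.00193 and 0.000519. MDM2 with cisplatin thus exceeded 5-FU by 2.65-fold although both drugs raised it, and CCNG1 had opposite signs in the 2 drugs. Against cytarabine, paclitaxel and cytochalasin D, where 22.1%, 5.8% and 7.74% of features differed, the MDM2 differences were 2.87, 2.82 and 2.79. The PPM1D differences were 1.97, 1.72 and 1.84 and the CCNG1 differences 1.17, 1.10 and 0.95, all passing with limma adjusted p values of at most 0.00233. The PPM1D differences rested on probes 2748141 and 3068755. With probe 2244109 alone, cisplatin minus each other drug lay between -0.00256 and 0.118 and did not pass.

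5-FU stood above cytarabine, paclitaxel and cytochalasin D for MDM2 only. Among all features 17.9%, 10.9% and 11.1% differed in these pairs. MDM2 was higher with 5-FU by 1.46 ± 0.14, 1.42 ± 0.14 and 1.39 ± 0.14 (SE), with limma adjusted p values of 0.000823, 0.00100 and 0.000956. For PPM1D the same differences were 0.46 (95% interval 0.03 to 0.90), 0.21 (-0.22 to 0.65) and 0.34 (-0.10 to 0.77), and for CCNG1 they were 0.07 (-0.16 to 0.31), 0.00 (-0.23 to 0.23) and -0.14 (-0.37 to 0.09). None of these 6 passed after adjustment. The intervals leave room for differences of these sizes and do not show that the drugs act alike.

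Cytarabine, paclitaxel and cytochalasin D did not differ from one another for any of the 3 genes after adjustment. The MDM2 differences lay between -0.08 and -0.03, with 95% intervals reaching from -0.38 to 0.27. The PPM1D differences were -0.25 (95% interval -0.64 to 0.14) for cytarabine minus paclitaxel, -0.13 (-0.52 to 0.26) for cytarabine minus cytochalasin D and 0.12 (-0.26 to 0.51) for paclitaxel minus cytochalasin D. For CCNG1 they were -0.07 (-0.28 to 0.14), -0.22 (-0.42 to -0.01) and -0.14 (-0.35 to 0.06) in the same order. Among all features, 3.2% differed between cytarabine and cytochalasin D and 0.204% between paclitaxel and cytochalasin D. Between cytarabine and paclitaxel limma called 0 of 6558 features, with 1153 at an unadjusted p under 0.05, and robust moderation also called 0, with 1152. By the order of the fitted ratios, MDM2 was highest with cisplatin, then 5-FU, and the other 3 drugs were not separated. For PPM1D and CCNG1 only cisplatin was separated from the other 4 drugs.

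**Figure D4:**
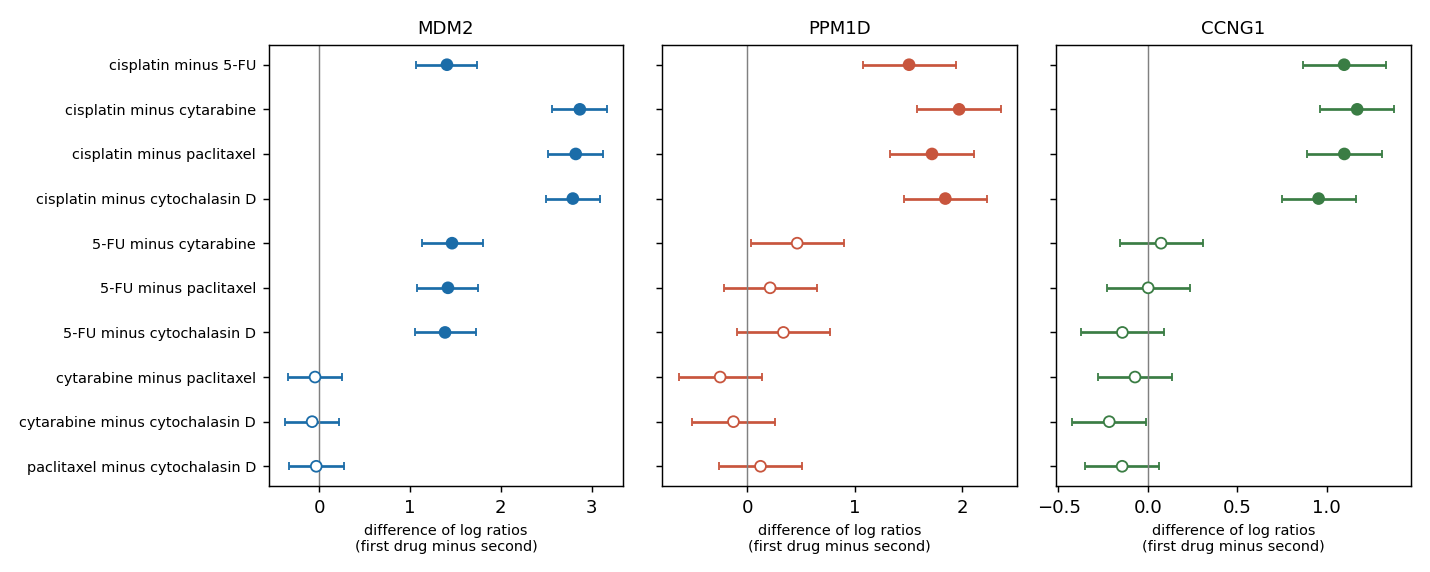
Differences of the fitted log ratios (taken as log2), first drug minus second, for the 10 pairs of drugs and each gene, with 95% intervals. Filled points passed at an adjusted p under 0.05 and open points did not. All 4 pairs with cisplatin are filled for each gene, and the 3 pairs of 5-FU with cytarabine, paclitaxel or cytochalasin D are filled for MDM2 only.

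Other p53 targets were high in the same 2 drugs. The list held 39 genes other than the 3, of which 19 are on the array. With cisplatin 7 of 11 tested were higher and 0 lower, where 8.54% of all features were higher. The list median was 0.71 against 0.01 over all features. The sign rule used this list in cisplatin, so its direction there is a description. DDB2, a damage sensor of nucleotide excision repair, rose by 1.89, the death receptor gene FAS by 1.44 and XPC, another damage sensor of nucleotide excision repair, by 1.41. With 5-FU 4 of 7 tested were higher and 0 lower, where 4.44% of all features were higher, with a median of 0.56 against 0.01 over all features. Without the channel term, a fit that admits 5-FU replicates measured in 1 orientation, 6 of 14 were higher, with a median of 0.24. In that fit 347 of 5589 features were higher with 5-FU. DDB2 rose by 0.82 in the fit with the term, TP53I3, which encodes a quinone oxidoreductase, by 0.63, and TRIAP1, a regulator of apoptosis, by 0.63.

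MDM2 was higher than every tested member of the list in both drugs, while CCNG1 with 5-FU lay below every tested member of the list. The difference cisplatin minus 5-FU could be tested for 6 of the list, and 3 passed, all higher with cisplatin, against 9.85% of all features. DDB2 differed by 1.07, CYFIP2, which encodes a partner of FMRP and the WAVE complex, by 0.79 and TNFRSF10C, a decoy receptor of TRAIL, by 0.39. CDKN1A, the cell cycle inhibitor p21, lacked the values for the channel term and was looked up after its values were seen. Without that term it read 3.66 with cisplatin and 2.49 with 5-FU, where MDM2 read 2.65 and 1.48. With cytarabine 1 of 11 was higher (TNFRSF10C, 0.29) and 1 lower (XPC, -0.63), where 22% of all features passed. Likewise with cytochalasin D 0 of 11 were higher and 1 lower (PMAIP1, which encodes the death-promoting protein NOXA, -0.61), where 10.7% passed. With paclitaxel 0 of 10 passed in this limma fit, where 6.69% of features did.

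**Figure D5:**
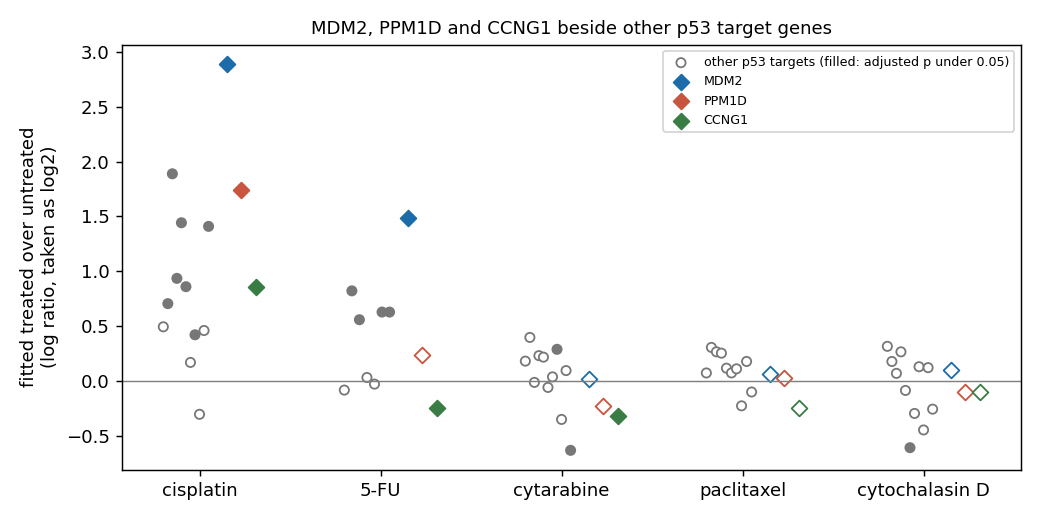
Fitted log ratios (taken as log2) of treated over untreated RNA by drug for the tested genes of a list of other p53 targets (grey circles) and for MDM2, PPM1D and CCNG1 (diamonds). Filled symbols passed at an adjusted p under 0.05. With 5-FU, MDM2 (1.48) lies above the tested list genes, of which DDB2 (0.82) is highest, and CCNG1 (-0.24) lies below them. CDKN1A could not be tested in this fit and is not shown. Without the channel term it read 2.49 with 5-FU.

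Calls among genes on which the 3 products act differed between lists and drugs. The list of damage kinases, their substrates and p53 had 8 of 12 genes on the array. ATM is the kinase that answers DNA double-strand breaks and whose autophosphorylation PPM1D reverses. It fell by 0.73 with cisplatin, 1.55 with cytarabine, 1.24 with paclitaxel and 1.24 with cytochalasin D. These 4 drugs were hybridised in 1 orientation, and the ATM channel term rests on 5-FU replicate 1 alone. Whether the fall belongs to the drugs or is shared by arrays of that orientation was not tested. With 5-FU only the fit without the channel term could test ATM. There it read -0.01 with 5-FU (limma adjusted p = 0.974) and -0.78 with cisplatin (limma adjusted p = 0.00202). With the channel term ATM was the only list member called with cisplatin (1 of 6, where 16.3% of all features passed). The same held with cytochalasin D (1 of 6, where 10.7% did). With cytarabine 2 of 5 were higher and 1 lower, where 22% of features passed, and with paclitaxel 1 of 6 was higher and 1 lower, where 6.69% did. PRKDC, the catalytic subunit of the DNA-dependent protein kinase, rose by 0.86 with cytarabine and 0.92 with paclitaxel. Without the channel term PRKDC read -0.16 and -0.10 in those drugs and did not pass, so its direction turned with that term. H2AX, the histone whose phosphorylated form marks DNA breaks, rose by 0.52 with cytarabine. With 5-FU 0 of 2 tested members passed in this limma fit, where 15.6% of features did. The fit without the channel term could test 7 members with 5-FU. There 2 were lower, H2AX (-1.04, limma adjusted p = 8.31e-05) and PRKDC (-0.89, limma adjusted p = 0.00481), where 723 of 5589 features were lower.

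The PP2A list had 5 of 10 genes on the array. PPP2R5D, a regulatory subunit, rose by 0.30 with cisplatin (1 of 4 tested) and fell by 0.33 with cytochalasin D (1 of 4). PPP2CA, the catalytic subunit, fell by 0.22 with 5-FU (1 of 3). Among all features 16.3%, 10.7% and 15.6% passed with cisplatin, cytochalasin D and 5-FU, so single calls among 3 or 4 genes are near the background. With cytarabine and paclitaxel 0 of 4 passed in this limma fit, where 22% and 6.69% of features did. Without the channel term the PPP2R5D ratio with cytochalasin D was -0.16 and did not pass (limma adjusted p = 0.190), and PPP2R5C, another regulatory subunit, which the fit with that term could not test, was lower with cisplatin (-0.93, limma adjusted p = 0.00924), where 15.8% of features passed. Among 5 of 19 inhibitors and cofactors of MDM2 on the array, 3 of 4 tested were lower with 5-FU, where 11.2% of all features were lower, and their median was -0.40. NCL, the nucleolar protein nucleolin, fell by 0.98, RPL11, a ribosomal protein that can bind and inhibit MDM2, by 0.45, and NUMB, an adaptor that binds MDM2 and p53, by 0.35. RPL11 also fell by 0.44 with cytarabine (1 of 5), where 22% of all features passed, so this call is near the background. With cisplatin, paclitaxel and cytochalasin D 0 of 5 passed, where 16.3%, 6.69% and 10.7% of features did. These calls changed without the channel term. RASSF1 was then higher (0.52) and NCL lower (-0.48) with cisplatin, where 15.8% of all features passed. NCL was also lower with cytochalasin D (-0.51), where 11% passed. With cytarabine 3 of 5 were then lower (RPL11, NCL and NUMB), where 25.9% of all features passed.

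The family relatives and the other feedback genes showed little. Of 3 other feedback genes on the array of 11 listed (SIAH1, CCNG2 and TRIM24), 0 passed with any drug in this limma fit. CCNG2, the relative of CCNG1, read 0.39 with cytochalasin D at a limma adjusted p of 0.117. Of 4 paralogs on the array of 11 listed, PPM1B rose by 0.33 with 5-FU (1 of 2 tested), where 4.44% of all features were higher. PPM1B is a phosphatase of the same family as PPM1D. With each other drug 0 of 3 or 4 tested passed. Among all features 16.3% passed with cisplatin, 15.6% with 5-FU, 22% with cytarabine, 6.69% with paclitaxel and 10.7% with cytochalasin D. Against these shares, calls or their absence among so few genes of either list say little. PPM1F, of the same family as PPM1D, could be tested with 5-FU only without the channel term. It was lower there (-0.60, limma adjusted p = 0.000717), where 723 of 5589 features were lower.

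The genes whose ratios most resembled each member over the 10 replicates were named by Pearson's r among 2452 genes with a value in each replicate. The 5-FU points average both channel orientations, while the points of the other drugs have treated RNA in channel 1 only. No channel term was applied to these values and the drugs are few, so r is a description. It compares the order and spacing of the values, not their size or sign. For MDM2 they were DDB2 (r = 0.99), DDX21 (0.97), SAT1 (0.96), ZNF175 (0.96) and IL6 (0.95). With 5-FU, where MDM2 read 1.47 and 1.49, DDX21 read -0.16 and -0.23 and ZNF175 0.05 and -0.09. DDB2, SAT1 and IL6 were above 0 in both 5-FU replicates. For PPM1D they were FOSL2 (0.98), MBTPS1 (0.97), PIP5K1A (0.96), TXNIP (0.96) and CCNG1 (0.96). For CCNG1 they were MIDEAS (0.98), ATP8A1 (0.98), IFI16 (0.97), GSS (0.97) and PPM1D (0.96). Sizes differed here too: with cisplatin MIDEAS read 0.25 and 0.19 and ATP8A1 0.15 and 0.11, while PPM1D read 1.71 and 1.62. Over the 8 replicates without cisplatin, r with MDM2 lay between 0.89 (ZNF175) and 0.97 (DDB2) for these 5 genes. For the genes named with PPM1D it lay between 0.53 (TXNIP) and 0.93 (FOSL2), and for those named with CCNG1 between 0.54 (PPM1D) and 0.87 (GSS). MDM2 correlated with PPM1D at 0.91 and with CCNG1 at 0.90 over all 10 replicates, and at 0.72 and 0.71 without cisplatin. DDB2 read 1.63 and 1.72 with cisplatin, 0.76 and 0.88 with 5-FU, and between -0.36 and 0.06 in the replicates of the other 3 drugs.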

How the data were processed

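Total RNA of treated and untreated H460 cells was compared on 12 two-channel arrays. The values deposited by the authors are log ratios, taken here as log2. Normalization, spot filter, log base and numerator: not given in the sources used here. A natural logarithm would change every size but no call by adjusted p. Brightness of the spots over background was not analysed here.

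Arrays were turned to treated over untreated, centred on their median, and probes of a gene averaged, which gave 7739 features (5930 probes match 1 gene, 79 several and 2161 none). limma 3.58.1 moderation in R 4.3.3 was applied to 10 replicates, with forward and reversed 5-FU arrays averaged, plus 1 channel observation from the 5-FU pairs (weight 4 for 2 pairs, 2 for 1). For the 4 drugs of a single orientation the error of that observation is assumed, so their SEs may be too small. Benjamini-Hochberg adjustment ran over all tested features, with 0.05 as threshold. A drug was tested where both replicates had a value, a rule set after a first fit had been seen. The code was tested on simulated data.

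Named genes are the 3 members, up to 3 called genes per list and drug with the largest ratio, and the 5 most alike per member. CDKN1A, CYFIP2 and TNFRSF10C in the pair, the uncalled feedback genes, and genes called only without the channel term were named after their values were seen. The members and lists were chosen with earlier results of these data known. Replicate numbers did not pair samples: deviations of same-numbered replicates correlated at -0.06 to 0.09.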

Additional observations from a re-analysis of the deposited data

How the results depend on the processing

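The rises of MDM2 with cisplatin and 5-FU, and of CCNG1 with cisplatin, passed under all alternatives run, and so did the PPM1D rise with cisplatin except from probe 2244109 alone (0.18). Leaving out replicates gave 2.80 to 2.98 for MDM2 with cisplatin, 1.47 to 1.49 with 5-FU, 1.69 to 1.80 for PPM1D with cisplatin and 0.75 to 0.96 for CCNG1 with cisplatin. From probe 2244109, PPM1D differed between cisplatin and 5-FU by 0.0848, cytarabine by 0.0304, paclitaxel by 0.118 and cytochalasin D by -0.00256, the last with its sign turned. PPM1D with cytarabine passed from probe 3068755 (-0.54). The small CCNG1 ratios depended on the setting. Leaving out replicates gave -0.26 to -0.23 with 5-FU and -0.40 to -0.23 with cytarabine. With cytarabine CCNG1 no longer passed when each array was an observation of its own (-0.32, adjusted p = 0.0532) or arrays scaled to the same spread (-0.25, adjusted p = 0.0653). With paclitaxel it passed without the channel term (-0.47) and with scaled arrays (-0.32), and with cytochalasin D without the channel term (-0.32). The cause was not tested. Of the results for single drugs, 268 alternative values kept their direction and side of the threshold, 5 came to pass and 12 ceased to. For pairs the counts were 395, 0 and 3, with 1 reversed. The replicate block changed no call of the 3 genes, for example MDM2 with cisplatin at 2.89 (adjusted p = 0.000118).

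Higher p53 targets with cisplatin numbered 12 of 17 without the channel term (which tests more genes), where 477 of 7146 features were higher. They numbered 3 of 11 at a minimum absolute ratio of 1, against 7 of 11. At that minimum 5-FU and cytarabine had 0 higher, against 4 and 1, and cytarabine and cytochalasin D 0 lower, against 1 each. The share of all features at that minimum was not computed. Without the channel term cytarabine had 2 lower of 15 tested, where 1011 of 6637 features were lower. In that fit 5-FU had 6 higher of 14 tested, where 347 of 5589 features were higher. In the other lists that term decided calls of PRKDC, PPP2R5D, NCL, RASSF1, and NUMB with cytarabine, named in the report. Over all features, lower calls without the channel term numbered 652 with cisplatin (against 381), 723 with 5-FU (429), 1011 with cytarabine (518), 542 with paclitaxel (194) and 607 with cytochalasin D (306). Higher calls with 5-FU numbered 347 without that term and 483 with single arrays as observations, against 170. Leaving out a replicate of the drug itself also cut these calls: with cisplatin to 178 or 180 higher (417) and 164 or 161 lower (381), with cytarabine to 271 or 159 higher (511) and 370 or 250 lower (518), with paclitaxel to 20 or 50 higher (127) and 66 or 98 lower (194), and with cytochalasin D to 38 or 30 higher (212) and 100 or 88 lower (306). The shares over all features given beside the counts are thus no firmer than these. The smallest groups hold 2 replicates, which limits the precision.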
